A study of Rattus norvegicus with 9 samples.

Results

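Chemokines are small secreted proteins that attract cells, and the genes for them and for their receptors were followed in cultured rat cardiac fibroblasts of 3 ages. Genes were taken by symbol: ligands named Ccl, Cxcl, Cx3cl or Xcl with a number, and receptors named Ccr, Cxcr, Cx3cr, Xcr or Ackr with a number. The rule found 53 of the 17337 genes in the count table, 34 ligands and 19 receptors. Of these, 27 had enough counts to be tested, 21 ligands and 6 receptors. The receptor genes Ccr2, Ackr1 and Ackr4 and the ligand gene Ccl8 were not analysed here.

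RNA was sequenced from 9 cultures, 3 for each age, all from Sprague Dawley rats without a stated genetic change or treatment. The fetal group was taken at embryonic day 18, the neonatal group on day 1 after birth and the adult group at 7 weeks of age. All cells were grown at passage 0, meaning without transfer to a new flask, until they covered it, in medium with fetal bovine serum and ascorbic acid. The labels mention no sorting, so each library held the RNA of every cell type in its flask, and they do not say whether replicates came from separate animals. P-values therefore measure the spread between these flasks or libraries, which may be technical.

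A chemokine binds a G protein-coupled receptor on a moving cell, which then follows the ligand to its source. CC ligands such as CCL2 draw mainly monocytes, CXC ligands that bind CXCR2 draw neutrophils, and CXCL12 acts through CXCR4 and is removed by the scavenging receptor ACKR3. In the heart, resident macrophages and fibroblasts both make chemokines, and NF-kB, the transcription factor of the inflammatory response, switches on many of these genes.

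Stretches of 120 bases before the start of transcription are printed for some of the genes described below (RefSeq, assembly GRCr8, a later assembly than the rn6 of the counts). The CXCR2 ligands Cxcl1, Cxcl2 and Cxcl6 and Ccl20 are shown because each has a match to the NF-kB consensus, and Ccl7 and Ccl12 because they had no match to it but have a TATA box. Sequences run 5′ to 3′ along the gene's strand, end at the base before the start, and carry in capitals the matches to the NF-kB consensus or to TATAAA.
Cxcl1, chr14:17479322-17479441, minus strand: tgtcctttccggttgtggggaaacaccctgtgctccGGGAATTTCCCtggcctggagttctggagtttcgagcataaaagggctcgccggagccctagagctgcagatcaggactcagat
Cxcl2, chr14:17467256-17467375, minus strand: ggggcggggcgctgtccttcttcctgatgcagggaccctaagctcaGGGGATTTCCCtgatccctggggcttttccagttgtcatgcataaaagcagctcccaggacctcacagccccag
Cxcl6, chr14:17596418-17596537, minus strand: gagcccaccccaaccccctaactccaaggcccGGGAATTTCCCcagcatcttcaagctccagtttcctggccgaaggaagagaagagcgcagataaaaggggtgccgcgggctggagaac
Ccl20, chr9:91837039-91837158, plus strand: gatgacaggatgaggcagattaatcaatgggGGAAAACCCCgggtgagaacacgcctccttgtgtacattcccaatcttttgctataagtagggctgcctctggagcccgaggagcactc
Ccl7, chr10:67513975-67514094, plus strand: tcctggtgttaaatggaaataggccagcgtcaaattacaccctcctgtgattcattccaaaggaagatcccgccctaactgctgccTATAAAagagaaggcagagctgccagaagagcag
Ccl12, chr10:67567756-67567875, plus strand: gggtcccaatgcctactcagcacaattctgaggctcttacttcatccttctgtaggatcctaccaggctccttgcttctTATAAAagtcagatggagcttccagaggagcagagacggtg

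The first NF-kB match lay at bases -84 to -75 in Cxcl1, -74 to -65 in Cxcl2, -88 to -79 in Cxcl6 and, on the opposite strand, -89 to -80 in Ccl20, counted from the start of transcription. In the 250 bases before the start, searched on both strands, the consensus was found in 8 of the 41 members with a RefSeq promoter entry and in 6 of 17 tested ligands (Ccl9, Ccl20, Cxcl1, Cxcl2, Cxcl6 and Cxcl10). Of all 33469 promoters searched in the same way, 3.54% held it. TATAAA was found in 12 of the 41 members and 12.9% of all promoters. The interferon element, a pair of GAAA repeats, was found in 2 of the 41, Cxcl10 and Ccl19, and 3.41% of all. The AP-1 site TGANTCA was found in 7 of the 41 and 6.34% of all. These matches are descriptions of letters, can overlap each other, and do not show binding. The 12 members without an entry include Ccl2, Ccl3 and Ccl4.

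Libraries held 13392825 to 22850491 assigned counts, so 3 counts, used as the floor for a gene at 0, stood for 1.31e-05% to 2.24e-05% of a library. Same-age libraries all differed by more than counting noise. Fetal replicate 3 stood apart from the other fetal libraries. Its 6 epithelial markers summed to 347 CPM (counts per 1000000, with library sizes scaled by the TMM method), against 22.4 and 25.5 in the others, and its 13 macrophage markers to 72.5 CPM against 15.3 and 15. Macrophage markers summed to 167 to 184 CPM in the neonatal libraries and to 4496, 5448 and 6255 CPM in adult replicates 1, 2 and 3. All 13 were called higher in the adult cells than at each earlier age, and 9 of 13 were higher in neonatal than in fetal cells. The 8 neutrophil markers summed to at most 3.03 CPM in any library, with S100a9, Mpo and Ltf at 0 counts throughout, and 5 B cell markers to at most 0.159 CPM. T and NK cell markers summed to at most 7.80 CPM. Of the fibroblast markers, Col1a1 and Col3a1 together held 20039 to 71560 CPM, the other 8 summed to 1558 to 2604 CPM, and among those Col1a2 was at most at 0.976 CPM in any library. Cardiomyocyte markers summed to 4888 to 10369 CPM in the fetal and neonatal libraries, while in the adult ones Tnnt2 held 303 to 316 CPM and the other 8 together at most 2.25 CPM. Dendritic cell markers went from 17.3 to 24.5 CPM in the younger to 102 to 140 CPM in the adult libraries, of which Cd83 gave 87.9 to 122 CPM. The other 4 summed to 17.2 to 22.1 CPM in the younger and 14.3 to 17.7 CPM in the adult libraries. Endothelial markers went from 11.2 to 26.6 CPM to 93.6 to 102 CPM, of which Tie1 gave 68.6 to 72.5 CPM. The other 7 went from 10.8 to 24.9 CPM to 25.1 to 30.4 CPM. In adult against neonatal cells 1 of 3 tested dendritic markers was called higher and 1 lower. Of 7 tested endothelial markers 4 were higher and 2 lower, where 31.6% and 31.8% of all genes were. The single genes named from these lists were picked out after their values were seen. In bulk RNA, fewer cells of a type and less RNA per cell cannot be told apart.

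The adult cultures carried far more chemokine ligand RNA than the younger ones. The 34 ligand genes took 0.0535%, 0.0528% and 0.0339% of the counts in the 3 fetal libraries and 0.0380%, 0.0381% and 0.0384% in the 3 neonatal ones. They took 0.857%, 0.578% and 0.474% in adult replicates 1, 2 and 3. The mean adult share, 0.636% ± 0.198 (SD, n = 3), was 16.7 times the neonatal share of 0.0382% ± 0.000170 (SD, n = 3) and 13.6 times the fetal share of 0.0467% ± 0.0111 (SD, n = 3). The adult libraries did not overlap the others, and the fetal libraries straddled the neonatal ones.

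**Figure D1:**
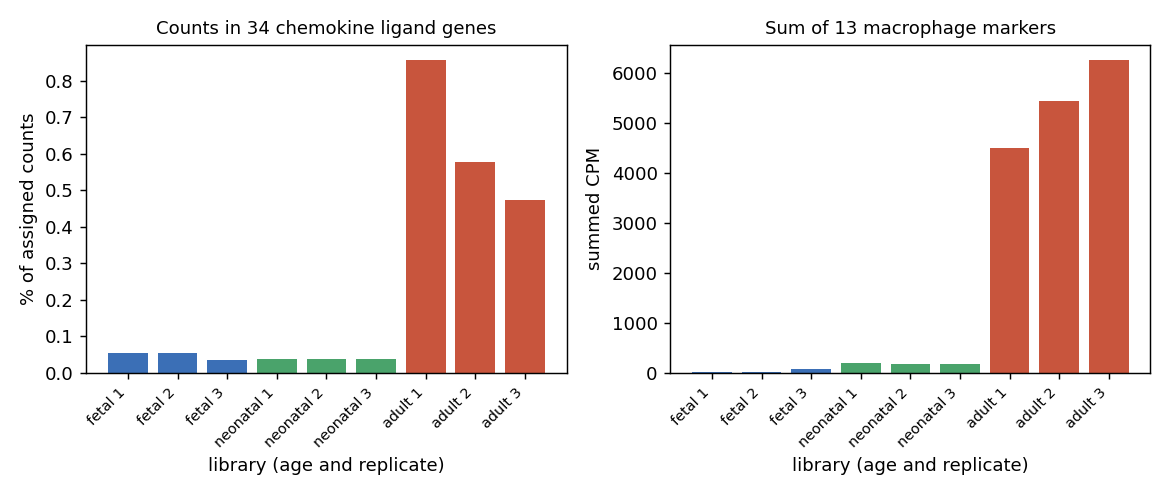
Share of assigned counts in the 34 chemokine ligand genes (left, percent) and summed CPM of 13 macrophage markers (right) in each library, with 1 bar per library coloured by age. Adult bars stand above all others in both panels. Adult replicate 1 has the highest ligand share (0.857%) and the lowest macrophage marker sum of the adult libraries (4496 CPM).

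Which ligand made up that share changed with age. Cxcl12, the ligand of CXCR4 and ACKR3, made up 87.7%, 87.4% and 58.3% of ligand counts in fetal replicates 1, 2 and 3 and 58.7% to 60.4% in the neonatal libraries. In adult replicate 1 it was still the largest at 25.7%, while in adult replicates 2 and 3 Ccl2 came first at 25.3% and 26.4%. With Cxcl12 left out, the ligand share was 0.00657%, 0.00665% and 0.0142% in the fetal libraries, 0.0151% to 0.0157% in the neonatal ones and 0.416% to 0.636% in the adult ones. The adult mean without Cxcl12 was 33.2 times the neonatal and 56.4 times the fetal mean.

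Levels of different genes were compared as transcripts per 1000000 (TPM), which divides by exon length. In fetal cells the highest of the 53 genes were Cxcl12 at 117 TPM ± 50.9 (SD, n = 3), Ackr3 at 87.4 ± 50.6 and Ccl2 at 63.8 ± 50.8, whose spreads overlap. By fetal replicate (1, 2 and 3), Cxcl12 stood at 147, 146 and 58.4 TPM and Ackr3 at 117, 117 and 29.0. Ccl2 stood at 34.2, 34.7 and 122 TPM, the highest of these genes in replicate 3 and the lowest of them in the others. In neonatal cells Ccl2 came first at 151 TPM ± 6.65 (SD, n = 3), ahead of Cxcl12 at 73.0 ± 1.74 and Cxcl16 at 39.7 ± 1.25. In adult cells the neighbouring genes Ccl2, Ccl7 and Ccl12 led at 3602 TPM ± 656, 3359 ± 661 and 2941 ± 463 (SD, n = 3), within each other's spread. Cxcl1 followed at 779 TPM ± 433, Ccl17 at 467 ± 149, Ccl3 at 399 ± 42.2, Cxcl16 at 368 ± 60.7 and Cxcl12 at 329 ± 233, and these 5 did not separate beyond their spread.

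Differences between ages were tested for each gene with edgeR's quasi-likelihood test over all 11337 genes with enough counts, with Benjamini-Hochberg adjustment and a threshold of 0.05 on the adjusted p. Between fetal and neonatal cells 6 of the 27 tested members rose (Ccl2, Ccl7, Ccl12, Ccl3, Ccl4 and Cx3cl1) and 0 fell. Of all genes tested, 36.3% were called in this comparison, 18.3% higher and 18.0% lower, and the members' 22.2% higher is near the 18.3% of all genes. The count of 0 lower compares with 1 at an unadjusted p under 0.05 (Ackr3) and with 2 of the 27 by DESeq2 (Ccl20 and Ackr3). DESeq2 also called Xcl1 lower, which had too few counts for the edgeR test.

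In adult against fetal cells 26 of 27 tested members were higher, the exception being Ackr3, where 70.5% of all genes were called, 34.9% higher and 35.5% lower. In adult against neonatal cells 26 of 27 were higher, all but Cx3cr1, where 63.5% of all genes were called, 31.6% higher and 31.8% lower. No tested member was lower in adult cells in either comparison by edgeR or DESeq2, and 0 were at an unadjusted p under 0.05. These counts cannot be read as all chemokine genes rising. Only 13 of the 27 tested members reached the level of the count filter in 3 of the 6 fetal and neonatal libraries. Ccl4, Ccl6, Ccl9, Ccl17, Ccl19, Ccl20, Ccl22, Ccl24, Cxcl2, Cxcl3, Cxcl6, Cxcl14, Ccr1 and Ccr7 passed it through the adult libraries alone. These genes had to differ, so their adult calls and p-values are no support for a rise. Among those 13, the 9 ligands had a median log2 difference of 5.75 against fetal and 4.77 against neonatal cells, and the 4 receptors 3.53 and 3.26. Over the 10951 genes that met the same level, the medians were -0.05 and -0.04. In neonatal against fetal cells the median was 0.95 for the 9 ligands and -0.01 for those genes.

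**Figure D2:**
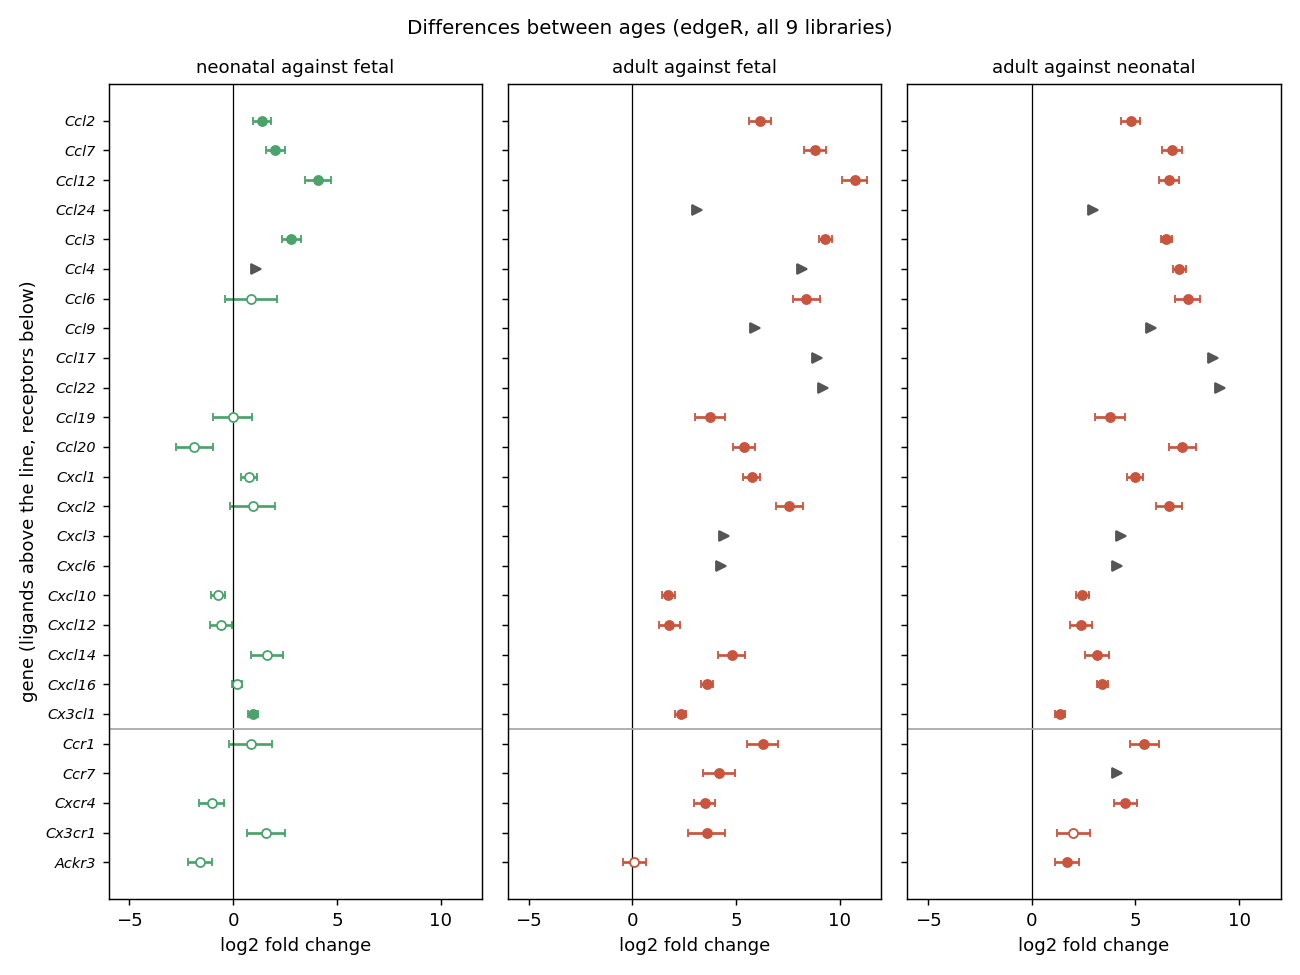
Log2 fold change of 26 of the 27 tested members in the 3 pairs of ages (edgeR, points with standard errors as bars; filled points passed the adjusted threshold, open points did not). Grey triangles are lower bounds for genes at or below 3 counts in every library of the younger age, and genes at the floor in both ages, or in neonatal cells alone (Ccr7), have no point in that panel. Nearly all points lie right of 0 in the adult panels. In the neonatal panel points lie on both sides of 0, most of them to the right, with 6 members called higher.

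The other 26 members had too few counts. Of these, 6 had no count in any library (Ccl26, Ccr1l1, Ccr3, Ccr6, Ccr9 and Cxcr1), and 5 ligands and 9 receptors stayed at or below 3 counts in every library. Among ligands, 27 of 34 exceeded 3 counts in at least 1 adult library, 18 in a neonatal and 20 in a fetal one. Among receptors these counts were 10, 7 and 8 of 19. The highest count among the untested genes was 40, for Xcl1, a ligand made chiefly by T and NK cells. It was found in fetal replicate 3, with 3 counts in each of the other fetal libraries and 0 in every neonatal one.

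**Figure D3:**
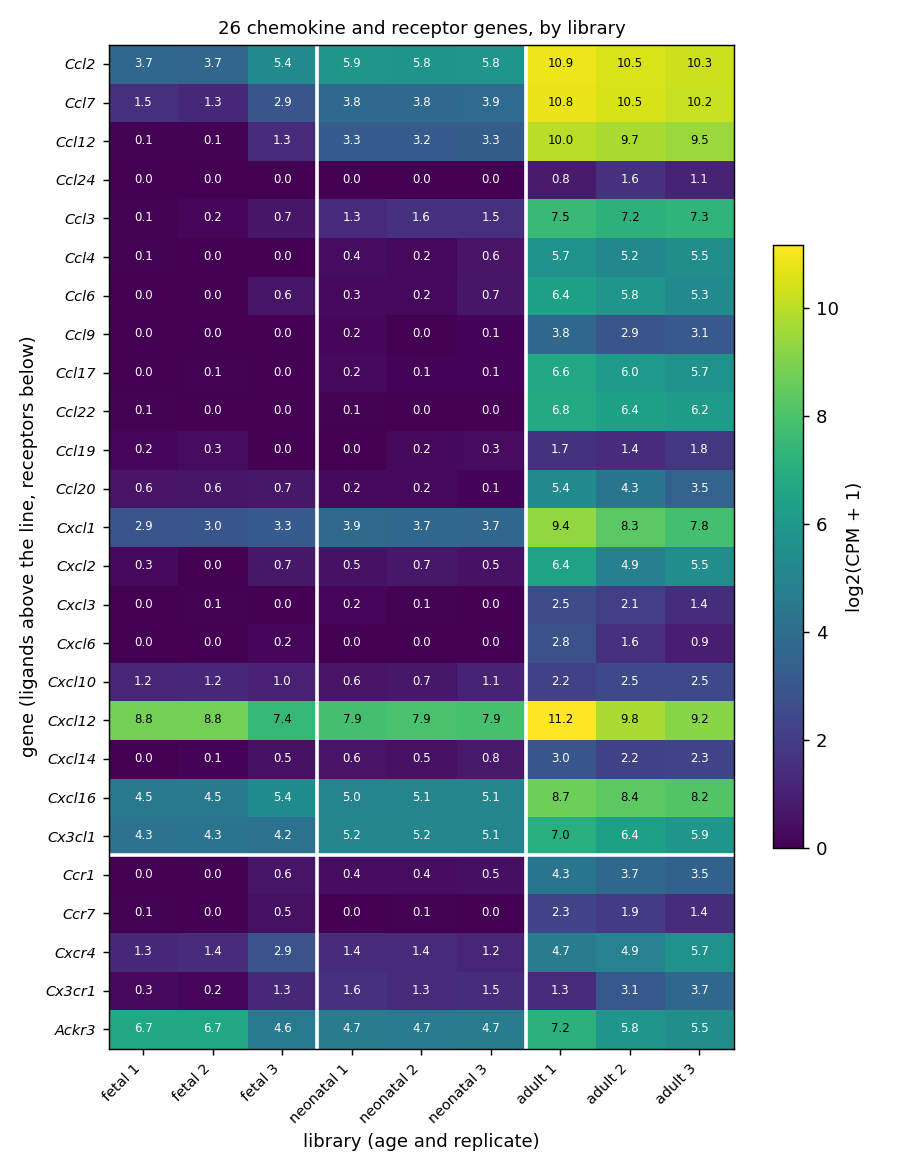
Level of 26 of the 27 tested members in each library, as log2(CPM + 1), with ligands above and receptors below the horizontal line and the 3 ages set apart by vertical lines. Most genes are near 0 in the 6 younger libraries and high in the adult ones, while Cxcl12, Ackr3, Cxcl16, Cx3cl1, Cxcl1 and Ccl2 are seen at every age.

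The monocyte-attracting ligands Ccl2, Ccl7 and Ccl12, which act on CCR2, rose at both steps. Their genes lie within 125.8 kb of chromosome 10, together with Ccl11 and Ccl1 (chr10:69412065-69537836, rn6). Ccl2 stood at 12, 12 and 40.4 CPM in the fetal libraries, 58.7, 53.5 and 55.5 in the neonatal ones and 1859.6, 1458 and 1258 in the adult ones. The 3 ages did not overlap, and fetal replicate 3 lay nearest to the neonatal values. The log2 difference was 1.38 ± 0.43 (SE) from fetal to neonatal (edgeR, adjusted p = 0.0349) and 4.77 ± 0.48 from neonatal to adult (adjusted p = 3.70e-05). The first call was lost in 9 of the alternatives, among them leaving out any 1 neonatal library (adjusted p 0.0815 to 0.0887), fetal replicate 1 (0.0863) or 2 (0.0860), or adult replicate 2 (0.0501). Without fetal replicate 3 the difference was 2.21 (adjusted p = 4.10e-05).

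Ccl7, a close relative of Ccl2, was measured at 1.89, 1.45 and 6.59 CPM in fetal, 13, 12.9 and 14.1 in neonatal and 1813, 1415 and 1187 in adult libraries. Its log2 difference was 2.03 ± 0.46 (SE) at the first step (edgeR, adjusted p = 0.00987) and 6.79 ± 0.48 between neonatal and adult cells (adjusted p = 5.05e-06). Ccl12, a rodent CCR2 ligand, went from 1, 1 and 28 counts in the fetal libraries to 156, 183 and 138 in the neonatal ones. That was 0.0540, 0.0441 and 1.49 CPM in fetal, 8.58, 8.50 and 8.93 in neonatal and 1016, 851 and 718 in adult libraries. Its log2 differences were 4.08 ± 0.62 (SE; edgeR, adjusted p = 0.00157) and 6.63 ± 0.47 (adjusted p = 5.15e-06). No library of one age overlapped another for either gene. Without fetal replicate 3 the first difference was 3.0 for Ccl7 (adjusted p = 0.000146) and, with the remaining fetal libraries at 1 count each, at least 58.9-fold for Ccl12 (adjusted p = 2.70e-06). Without fetal replicate 2 it was 3.47 for Ccl12 (adjusted p = 0.00429).

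The other genes of this neighbourhood did not share these levels. Ccl11, the eosinophil attractant eotaxin, had 33, 17 and 0 counts in the adult libraries and at most 6 in any younger one. Ccl1, a ligand of CCR8, had at most 2 counts anywhere. Ccl24, another eosinophil attractant on chromosome 12, was at 0 in all fetal and neonatal libraries and at 10, 28 and 15 counts in the adult ones, at least 7.84-fold higher than in neonatal cells against a floor of 3 counts per library. Such bounds cover counting error only.

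The ligands of CCR1, which draw monocytes and T cells, were low before adulthood. Ccl3 was found at 0.0540, 0.132 and 0.584 CPM in fetal, 1.54, 2.0 and 1.81 in neonatal and 186, 145 and 158 in adult libraries. It was higher by 2.80 ± 0.46 (log2, SE) in neonatal than in fetal cells (edgeR, adjusted p = 0.00217) and by 6.5 ± 0.26 in adult than in neonatal cells (adjusted p = 1.26e-07). Without fetal replicate 3 the remaining fetal libraries were at the floor, and the neonatal level was at least 12.1-fold higher (adjusted p = 4.09e-05). The ages did not overlap, and the standard deviation of the adult values was 13% of their mean.

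Ccl4, next to Ccl3, had 1, 0 and 0 counts in the fetal libraries, 5, 4 and 8 in the neonatal and 688, 499 and 590 in the adult ones. It was called higher in neonatal than in fetal cells (edgeR, adjusted p = 0.0116), by at least 2.16-fold, and adult cells held at least 293-fold more than fetal cells. Ccl6 gave 0, 0 and 0.531 CPM in fetal, 0.220, 0.186 and 0.582 in neonatal and 82.3, 55.2 and 38.3 in adult libraries, with a log2 difference of 7.53 ± 0.61 (SE) between neonatal and adult cells (edgeR, adjusted p = 1.07e-05), or 8.12 without neonatal replicate 3. Ccl4, Ccl6 and Ccl9 passed the count filter through the adult libraries alone. Ccl9 was at or below 2 counts in all fetal and neonatal libraries and at 165, 93 and 101 counts in the adult ones, at least 54.0-fold more than in neonatal cells. Ccl5, in the same 146.3 kb group (chr10:70739765-70886067, rn6) and better known from T cells, had only 1, 17 and 10 counts in the adult libraries and 0 before.

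**Figure D4:**
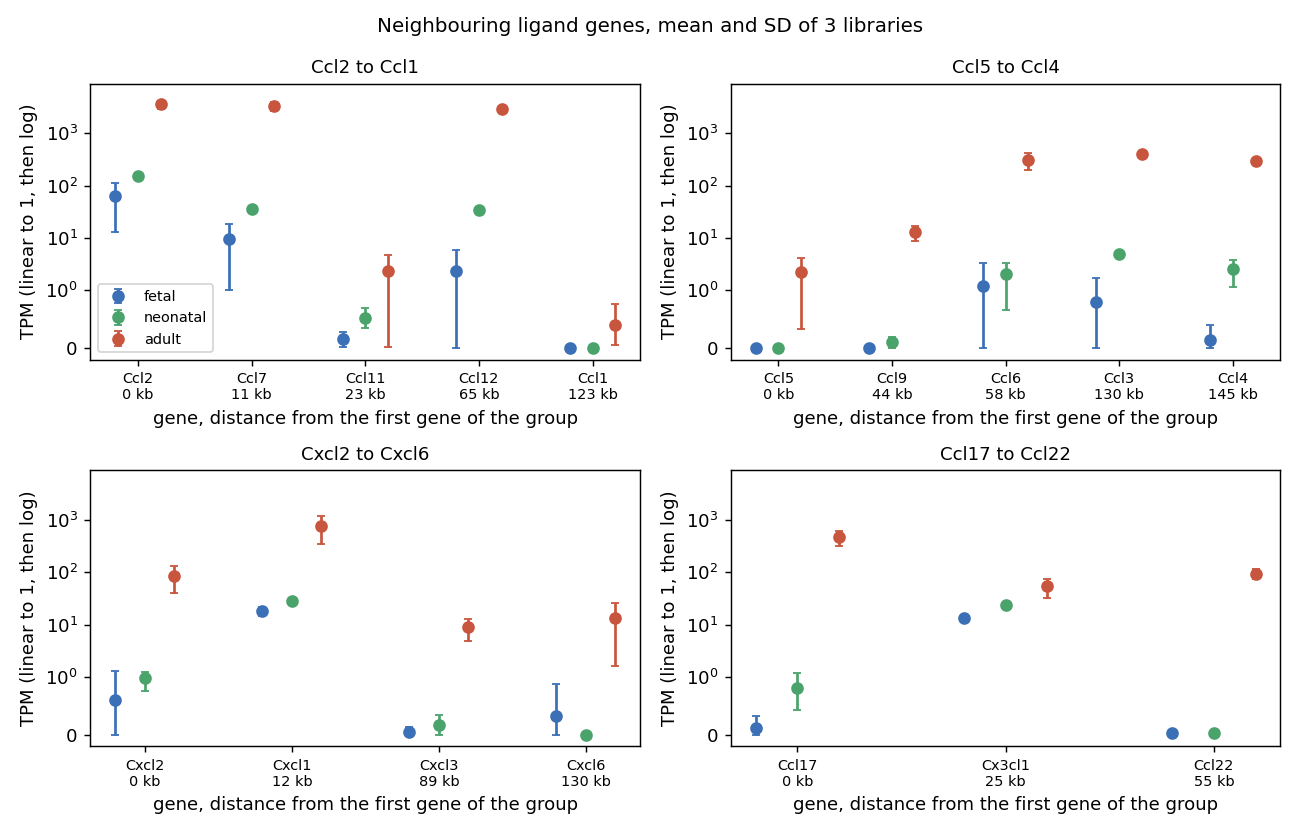
TPM of ligand genes in 4 groups of neighbours on the rn6 map, plotted in map order with the distance of each gene's start from the first gene (points are means and bars the SD of 3 libraries, stopped at 0, and the axis is linear up to 1 TPM and logarithmic above). In the first group Ccl2, Ccl7 and Ccl12 reach 2941 TPM or more in adult cells while Ccl11 and Ccl1, between and beside them, stay near the bottom, and in the last group Cx3cl1 is present at all ages while Ccl17 and Ccl22 on its 2 sides appear in adult cells.

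The CCR4 ligands Ccl17 and Ccl22, which attract Th2 and regulatory T cells, were at the floor before adulthood. Ccl17 had 0, 1 and 0 counts in the fetal, 3, 2 and 1 in the neonatal and 1293, 882 and 696 in the adult libraries, the last equal to 98.9, 63.7 and 52.1 CPM. The adult level was at least 431-fold above the neonatal one (edgeR, adjusted p = 2.06e-07). Ccl22 had 1, 0 and 0 counts in the fetal, 1, 0 and 0 in the neonatal and 1474, 1150 and 961 in the adult libraries, or 113, 83.0 and 71.9 CPM. This was at least 537-fold above the neonatal level (edgeR, adjusted p = 4.79e-08). Both genes passed the count filter through the adult libraries alone. Between them on chromosome 19 (chr19:10619220-10681145, rn6; 61.9 kb) lies Cx3cl1.

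Cx3cl1, fractalkine, a membrane-bound ligand of CX3CR1, behaved unlike its neighbours in level. It measured 18.1, 18.4 and 16.8 CPM in fetal, 34.6, 35.0 and 33.7 in neonatal and 130, 81.2 and 57.1 in adult libraries, with no overlap between ages. The log2 difference was 0.95 ± 0.25 (SE) at the first step (edgeR, adjusted p = 0.0184) and 1.38 ± 0.25 at the second (adjusted p = 0.00109). Leaving out fetal replicate 3 (log2 0.92, adjusted p = 0.0910) or neonatal replicate 2 (adjusted p = 0.0528) ended the neonatal call.

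The CXCR2 ligands, which attract neutrophils, were all 4 called higher in adult cells, where 34.9% (against fetal) and 31.6% (against neonatal) of all genes were, and not called between fetal and neonatal cells. Cxcl2, Cxcl3 and Cxcl6 passed the count filter through the adult libraries. Cxcl1 was found at 6.53, 7.01 and 8.55 CPM in fetal, 13.4, 12.1 and 12 in neonatal and 657, 311 and 223 in adult libraries. The log2 difference was 4.99 ± 0.40 (SE) between neonatal and adult cells (edgeR, adjusted p = 9.96e-06). From fetal to neonatal it was 0.76 ± 0.39, which did not pass (adjusted p = 0.152) although the libraries did not overlap. That difference passed with only those ages fitted (adjusted p = 0.00712) and without adult replicate 1 (0.00690).

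Cxcl2 had 0.216, 0 and 0.637 CPM in fetal, 0.440, 0.650 and 0.453 in neonatal and 85.4, 28.7 and 43.5 in adult libraries, a log2 difference of 6.63 ± 0.62 (SE) between neonatal and adult cells (edgeR, adjusted p = 2.48e-05). Cxcl3 and Cxcl6 were at or below 3 counts in every younger library. In the adult ones Cxcl3 had 63, 45 and 23 counts and Cxcl6 had 77, 27 and 12, at least 19.6-fold and 17.5-fold above the neonatal level. Without adult replicate 1 the bound for Cxcl6 was 8.57-fold. All 4 genes lie on chromosome 14 within 130.9 kb (chr14:18731346-18862268, rn6), and each was highest in adult replicate 1. Cxcl1, Cxcl2 and Cxcl6 carry the NF-kB matches printed above.

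Other ligands with a level of at least 10 CPM were Ccl20, Cxcl16 and Cxcl12. Ccl20, the chemokine ligand of CCR6, was at 0.486, 0.529 and 0.637 CPM in fetal, 0.165, 0.186 and 0.0647 in neonatal and 40.2, 19.1 and 10.3 in adult libraries. Ccl20 passed the count filter through the adult libraries alone. Its log2 difference was 7.26 ± 0.65 (SE) between neonatal and adult cells (edgeR, adjusted p = 1.57e-05), or 6.60 without adult replicate 1. From fetal to neonatal it was -1.88 ± 0.89 (adjusted p = 0.128), which passed by DESeq2 (adjusted p = 0.0247) and by edgeR without adult replicate 1 (0.0196) or 3 (0.0373).

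Cxcl16, a membrane-bound ligand of CXCR6, was at 21.5, 21.6 and 41.5 CPM in fetal, 31.1, 32.3 and 32.8 in neonatal and 409, 327 and 286 in adult libraries. The log2 difference was 3.41 ± 0.26 (SE) between neonatal and adult cells (edgeR, adjusted p = 8.36e-06) and 0.19 ± 0.25 between fetal and neonatal cells (adjusted p = 0.583). Without fetal replicate 3 the latter became 0.57 (adjusted p = 0.0120). Exons of Cxcl16 share 119 bases with Zmynd15, where reads were assigned to neither gene.

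The interferon-inducible ligand Cxcl10, which binds CXCR3, went from 1.06 to 1.37 CPM in fetal and 0.495 to 1.16 in neonatal to 3.52 to 4.49 in adult libraries (log2 2.45 ± 0.32 (SE) between neonatal and adult cells, edgeR, adjusted p = 0.000148). Its neighbours Cxcl9 and Cxcl11 had at most 1 and 10 counts. Cxcl14, a ligand whose receptor is debated, stood at 6.81, 3.54 and 4.04 CPM in the adult libraries and at most at 0.712 CPM in the younger ones. Ccl19, a ligand of CCR7, was at 1.66 to 2.47 CPM in adult and at most 0.264 CPM in younger libraries.

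Cxcl12 was present at every age and varied widely among the fetal and adult libraries. It measured 459, 450 and 171 CPM in fetal, 234, 244 and 239 in neonatal and 2283, 865 and 584 in adult libraries. The lowest adult library still exceeded the highest fetal one, and fetal replicate 3 fell below the neonatal values while the other fetal libraries lay above them. The adult level was higher than the neonatal one by 2.38 ± 0.53 (log2, SE; edgeR, adjusted p = 0.00395) and than the fetal one by 1.79 ± 0.52 (adjusted p = 0.0131), which was lost without fetal replicate 3 (log2 1.45, adjusted p = 0.0755). Without adult replicate 1 these differences were 1.6 (adjusted p = 0.00728) and 1.01 (adjusted p = 0.0436). Fetal and neonatal cells differed by -0.59 ± 0.51 (adjusted p = 0.388).

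Ackr3, the scavenging receptor for CXCL12, had the same order as Cxcl12 among the fetal and among the adult libraries. It stood at 102, 100.3 and 23.7 CPM in fetal, 24.5, 24.2 and 25.2 in neonatal and 142, 56.2 and 44.4 in adult libraries. Adult values overlapped fetal ones, with a log2 difference of 0.10 ± 0.56 (SE; edgeR, adjusted p = 0.881). Its sign turned when fetal replicate 3 (-0.33, adjusted p = 0.573) or adult replicate 1 (-0.58, adjusted p = 0.351) was left out. Against neonatal cells the adult level was higher by 1.71 ± 0.58 (adjusted p = 0.0288), but not beyond the threshold without adult replicate 1 (log2 1.03, adjusted p = 0.124) or without any 1 neonatal library (adjusted p 0.0738 to 0.0793). Neonatal cells differed from fetal cells by -1.61 ± 0.58 (adjusted p = 0.0572), and Ackr3 passed as lower without fetal replicate 3 (log2 -2.04, adjusted p = 0.0252) or without adult replicate 1 (-1.61, adjusted p = 0.0316) and by DESeq2 (-1.62, adjusted p = 0.0356).

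**Figure D5:**
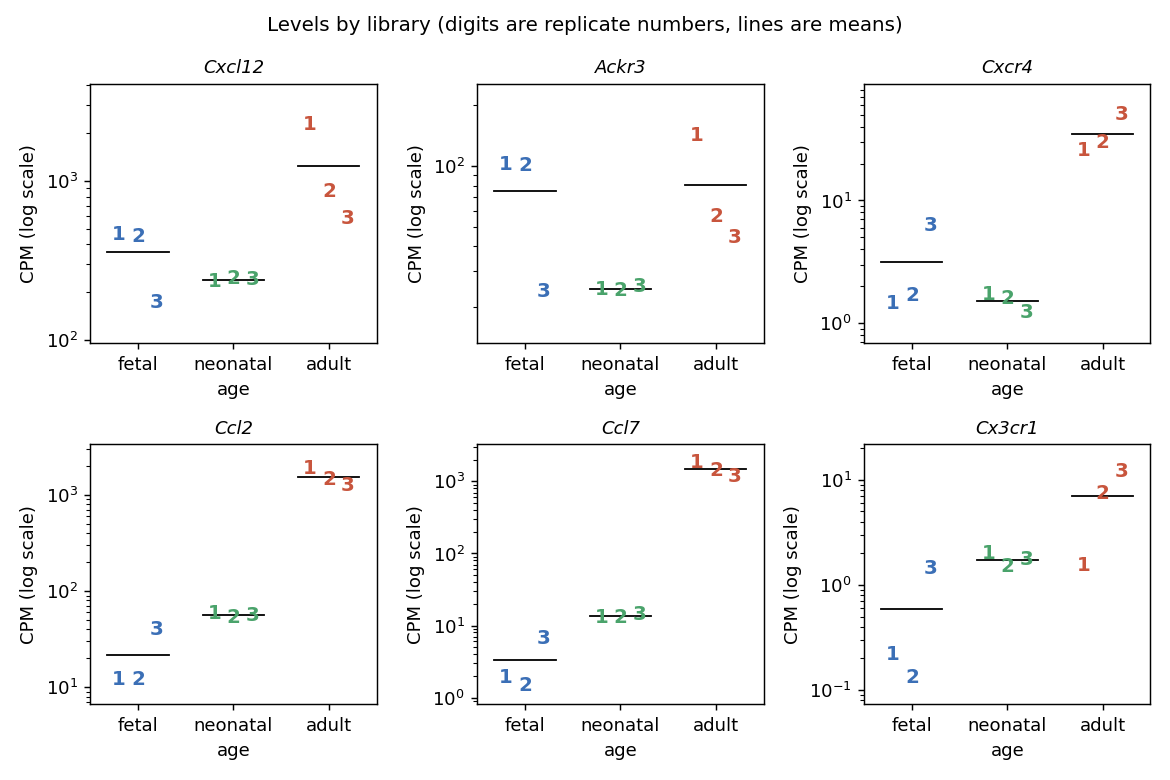
CPM of 6 members in each library, on logarithmic axes that differ between panels (digits are replicate numbers and lines the mean of an age). Cxcl12 and Ackr3 are low in fetal replicate 3 and high in adult replicate 1, while Cxcr4 and Cx3cr1 are high in fetal replicate 3 and lowest among the adult libraries in adult replicate 1, and Ccl2 and Ccl7 form 3 separate levels by age.

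Cxcr4, the signalling receptor for CXCL12, ran in the opposite order among the fetal and among the adult libraries. It had 1.46, 1.67 and 6.27 CPM in fetal, 1.71, 1.58 and 1.23 in neonatal and 25.3, 29.6 and 49.8 in adult libraries. It was higher in adult than in neonatal cells by 4.52 ± 0.56 (log2, SE; edgeR, adjusted p = 0.000137). Against fetal cells the difference was 3.49 ± 0.52 (adjusted p = 0.000292), or 4.46 without fetal replicate 3 (adjusted p = 8.44e-06), and fetal and neonatal cells differed by -1.03 ± 0.60 (adjusted p = 0.203). On the TPM scale Cxcr4 stood at 37.8 ± 14.4 (SD, n = 3) in adult cells and Ackr3 at 76.4 ± 48.6, spreads that overlap.

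Among receptors for the CC ligands, Ccr1, found on monocytes and macrophages, was low in the younger cells and higher in adult ones. It had 0, 0 and 10 counts in the fetal, 5, 6 and 6 in the neonatal and 248, 169 and 133 in the adult libraries, the last equal to 19.0, 12.2 and 9.96 CPM. The log2 difference between neonatal and adult cells was 5.44 ± 0.69 (SE; edgeR, adjusted p = 0.000134). Ccr1 passed the count filter through the adult libraries alone. Ccr1 was not called between fetal and neonatal cells (adjusted p = 0.546). Without fetal replicate 3, which held its only fetal counts, it passed (adjusted p = 0.0177).

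Ccr7, the homing receptor of mature dendritic cells, had 1, 0 and 8 counts in the fetal libraries and at most 1 in the neonatal ones. It had 53, 39 and 23 counts in the adult libraries, at least 17.2-fold more than in neonatal cells. Cx3cr1, the fractalkine receptor of resident macrophages and monocytes, measured 0.216, 0.132 and 1.43 CPM in fetal, 1.98, 1.49 and 1.75 in neonatal and 1.53, 7.44 and 12.1 in adult libraries. Adult replicate 1 thus lay within the neonatal range. The log2 difference between neonatal and adult cells was 2.01 ± 0.79 (SE; edgeR, adjusted p = 0.0502), and without adult replicate 1 it was 2.48 (adjusted p = 0.00944). It also passed without fetal replicate 2 (0.0434) or 3 (0.0280), with other size factors (0.0494), with only those ages fitted (0.0468) and by DESeq2 (0.0228).

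Of the 19 receptors, the counts went mostly to Ackr3 in the younger cells, 69.6% to 98.1% of receptor counts in the fetal and 80.9% to 84.6% in the neonatal libraries. In adult replicates 1, 2 and 3 it took 63.8%, 42.3% and 30.5%, and in replicate 3 Cxcr4 was first at 34.2%. Receptor genes together took 0.0165% ± 0.00444 of adult, 0.00283% ± 0.0000568 of neonatal and 0.00837% ± 0.00383 of fetal counts (SD, n = 3).

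Several ligands that were high in adult cells had their main receptors at or near 0 counts in the same flasks. Ccr4, for Ccl17 and Ccl22, had 0 counts in every adult library. Cxcr2, for the 4 CXCR2 ligands, had 2, 0 and 4, and Cxcr1 had 0. Cxcr6, for Cxcl16, and Ccr6, for Ccl20, had 0 counts in the adult libraries, a level that 3 counts of 13392825 or more would bound at 2.24e-05% of counts. Cxcr3, for Cxcl10, had 7, 1 and 0, but Cxcl10 itself was low, at 3.52 to 4.49 CPM in the adult libraries. Pairs present in the adult libraries included Ccl3, Ccl4, Ccl6 and Ccl9 with Ccr1, Cxcl12 with Cxcr4 and Ackr3, Cx3cl1 with Cx3cr1, and Ccl19 with Ccr7. The last pair was low too, at 1.66 to 2.47 CPM for Ccl19 and 1.72 to 4.05 CPM for Ccr7.

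Macrophage markers and the ligand share of counts were both higher in the adult than in the younger libraries. The order of the adult replicates is given for both. Of the 21 tested ligands, 18 were highest in adult replicate 1, where 39.8% of all genes tested were highest, and 13 were lowest in adult replicate 3, where 36.8% of all genes were lowest. Of the 13 macrophage markers, 11 were lowest in adult replicate 1, where 35.7% of all genes were lowest. In adult replicate 3, 9 of the 13 were highest, where 34.2% of all genes were highest. The ratio of adult replicate 1 to adult replicate 3 was largest among the named ligands for Ccl20 at 3.92, Cxcl12 at 3.91 and Cxcl1 at 2.95, and smallest for Ccl3 at 1.18 and Ccl4 at 1.19. Of the 6 tested receptors, 4 were highest in adult replicate 1, with a ratio of 1.91 for Ccr1 and 3.20 for Ackr3, while for Cxcr4 the ratio was 0.509. Nfkbia, an NF-kB target that encodes its inhibitor and was chosen after its values were seen, stood at 462, 179 and 190 CPM in adult replicates 1, 2 and 3. It is 1 of 43 tested genes of the signalling list described below, of which 17 were highest and 21 lowest in adult replicate 1. The part of NF-kB was not tested. In the fetal libraries, 12 of 13 macrophage markers and 5 of 6 tested receptors were highest in replicate 3, where 43.6% of all genes were highest. The part of macrophage RNA in these differences was not tested.

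Of 46 genes listed for signalling downstream of chemokine receptors or for handling chemokines, 43 were tested. In neonatal against fetal cells 13 were higher and 1 lower, in adult against fetal cells 33 higher and 4 lower, and in adult against neonatal cells 33 higher and 6 lower. Over all genes the shares called higher and lower were 18.3% and 18.0%, 34.9% and 35.5%, and 31.6% and 31.8%. The median log2 difference of the list was 0.27, 1.22 and 1.25 in the same order, where that of all genes was -0.01 each time. Plcb2, a phospholipase C isoform of blood cells that Gi-coupled receptors activate, rose from 1.16 to 1.49 CPM in neonatal to 46.6 to 53.4 CPM in adult libraries (edgeR, log2 5.28, adjusted p = 1.47e-08). Lyn, a Src-family kinase, was present at every age and rose by a log2 of 2.46 (adjusted p = 8.65e-08), and Ptk2b, the calcium-dependent kinase PYK2, by 2.56 (adjusted p = 3.11e-07). The neonatal count of 13 higher was 21 without fetal replicate 3 and 8 when libraries were scaled by their totals alone.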

How the data were processed

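Gene counts of 9 libraries, 3 for each of 3 ages, were used as deposited. Per the file headers, the authors made the counts with featureCounts 1.6.3 from sorted alignments and a gene annotation of rn6, with no strand or multi-mapping option, so counting was unstranded and reads that map to several places were left out by that program's defaults. Where related genes (such as Ccl2, Ccl7 and Ccl12, or Cxcl1, Cxcl2 and Cxcl3) share sequence, and where genes overlap, counts are uncertain to that extent. The similarity of these genes was not measured. Trimmomatic 0.39 and STAR 2.5.2b are named in the submitters' processing notes without settings. The exon length of each gene, another column of that table per the file headers, is in bases. A second deposited table gave a normalized signal for 12786 genes, which equalled the count divided by 1 factor per library in all values (largest deviation 4.96e-05%), and no member's value was taken from it.

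Of 17337 genes, 3163 had no counts. Ages were compared by edgeR 4.0.16 under R 4.3.3: filterByExpr by age (11337 genes kept), TMM scaling, and robust glmQLFit and glmQLFTest over all 9 libraries with age as the only term, on a threshold of 0.05 for the Benjamini-Hochberg adjusted p. The procedure was also run on simulated counts with far fewer changed genes than here and the same spread for every gene. That run cannot vouch for it on these data. CPM use TMM-scaled library sizes, and TPM the deposited exon lengths. An age with all libraries at or below 3 counts was set to that floor per library for bounds. Alternatives were other scaling, DESeq2 1.42.0, no filter, only the ages compared, a replicate block, and leaving out each library. Same-numbered libraries of different ages did not deviate together (r from -0.0649 to 0.0521), so numbers were not taken as pairs.

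Members with a mean of at least 10 CPM at some age (18 genes) are given by library. Receptors may be named at any level. Of other lists, the rule allowed at most the 4 genes with the smallest adjusted p. Nfkbia, Pf4, its neighbour Ppbp and single marker genes were named outside that rule. The members, and the lists of roles, signalling genes and markers (macrophage, neutrophil, T and NK cell, B cell, dendritic cell, mast cell, endothelial cell, cardiomyocyte, epithelial cell and fibroblast), were chosen with earlier results of these data known. Mast cell markers summed to 2.99 to 6.66 CPM in the adult and 5.82 to 14.2 CPM in the younger libraries. Promoters came from RefSeq (GRCr8), matched by symbol for 41 of 53 members. A receptor gene and a signalling gene that the counts include are not reported here by name.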

Additional observations from a re-analysis of the deposited data

How the results depend on the processing

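Over 1117 alternative values for tested members, 1073 kept their direction and side of the threshold, 21 newly passed, 17 no longer passed and 6 changed sign, none of the 6 called in either setting. Sign changes were Cxcl16 between neonatal and fetal cells with library size alone (log2 -0.0066), Ccl19 in the same comparison without fetal replicate 1 (0.03), fetal replicate 2 (0.80) or neonatal replicate 1 (0.55; range with 1 library left out -0.56 to 0.80), and Ackr3 between adult and fetal cells without fetal replicate 3 (-0.33) or adult replicate 1 (-0.58; range -0.58 to 0.40). The count of 0 members lower in neonatal than in fetal cells was 1 with library size alone, 1 without the count filter (Xcl1), 1 with only those ages fitted, 3 with DESeq2 (Xcl1 among them), and 0 to 2 when 1 library was left out; the cause was not tested. Library size alone moved the median of all genes by -0.17 in that comparison and by -0.11 between adult and fetal cells. With the replicate block as a paired term, 6, 26 and 26 members were higher in the 3 comparisons and 0 lower in each, as without it. Genes below about 1 CPM in the younger cells rest on few counts, so their fold changes are known only as bounds or within wide errors.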

Other observations

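Pf4, a platelet and macrophage chemokine whose symbol falls outside the naming rule used for the 53 genes, lies between the CXCR2 ligand genes on chromosome 14. It was chosen after its values were seen. Pf4 measured 0, 0.0441 and 2.55 CPM in the fetal libraries, 1.38, 1.16 and 1.04 in the neonatal and 73.7, 86.4 and 74.7 in the adult ones (edgeR, log2 6.02 between neonatal and adult cells, adjusted p = 8.62e-05). Its neighbour Ppbp had 0 CPM in every library. Unlike Cxcl1 and Cxcl2, Pf4 was not highest in adult replicate 1.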
